A study of Triticum aestivum with 18 samples.

Results

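TaGlu1a and Taglu1b are wheat genes for beta-glucosidases that act on benzoxazinoid glucosides. They were taken as all probe rows whose symbol in the annotation of the array platform, or whose RefSeq synonym, is one of these names. This gave 5 rows of 45220 in the table, 4 for TaGlu1a and 1 for Taglu1b, and 996 rows of the table are annotated with exactly 1 symbol. Both genes were singled out with their fall under aluminium (Al), and with its difference between lines, already known from these arrays. Those changes are therefore given as descriptions, with standard errors and without p-values.

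Benzoxazinoids are defence compounds of wheat, rye and maize that are most abundant in young seedlings. The plant stores them as inactive glucosides, and a beta-glucosidase kept in another compartment of the cell, the plastid, removes the glucose when tissue is damaged and so releases the toxic aglycone. Several closely related wheat isozymes, of which TaGlu1a and Taglu1b encode members, assemble into mixed oligomers.

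Total RNA came from root apices of 3 plant lines: the bread wheat (Triticum aestivum) Chinese Spring (CS), and the wheat-rye addition lines 3R and 6R, each with the rye (Secale cereale) chromosome of that name added to wheat. At 4 days of age seedlings received 200 µM AlCl3 in their nutrient solution for 24 h, while control seedlings received none, and all were harvested at 5 days. The solution was set to pH 4.0 for both treatments, so the control plants also grew in acid medium, and each sample pooled 9 root tips of 1 cm. Every line and treatment had 3 samples, 18 in all, called biological replicates in the labels, and the Al and control sample of a replicate shared 1 of 9 arrays. Al samples carried Cy3 on 2 arrays of every line, with their control samples in Hyper 5 (a far-red dye), and on 1 array the dyes were exchanged.

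Values are log2 intensities, and a difference of 1 is a 2-fold change of intensity. The samples of a line share 1 distribution of values that differs from that of other lines, with medians of 7.33 in CS, 7.09 in 3R and 7.22 in 6R. Replicates of a group correlated at 0.941 to 0.98 over all rows, and no columns were identical. Slides were inferred from the scanner file names in the labels. Replicates 1 and 2 of 3R and 6R were on slide 1, those of CS on slide 2, and replicate 3 of every line on slide 3. As a check of the tissue label, a list of genes of dividing cells (beta-tubulins and histones H2A) had 17 rows, with a list mean of 12.38 to 12.71 in CS control samples, and 2 of the 17 lay under 6.3, near the floor of the table at 5.62. A list of photosynthesis genes, which stands for green tissue, had 23 rows, 17 of them of the gene rbcL. Its list mean, which thus rests mostly on 1 gene, was 8.94 to 9.62 in the same samples, and 1 row lay under 6.3.

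The 4 rows of TaGlu1a are all assigned to 1 GenBank record and are numbered here from the brightest, row 1, to the dimmest, row 4. Whether they are 1 probe spotted repeatedly or several probes is not given in the sources used here. In the annotation of IWGSC CS RefSeq v2.1, which was used for names and gene order alone, both genes lie on chromosome 2B with 11 annotated genes between them, 6 of them protein-coding. The same annotation names 4 genes of this family on 3 chromosomes, counting Taglu1c and TaGlu1d, and these other 2 have no named row. How far a probe tells the near-identical family members, or rye transcripts, apart was not tested, so each value may hold signal of several copies.

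Without Al, the leading rows of both genes (row 1 of TaGlu1a and the row of Taglu1b) were among the brightest rows of the table in every line. The leading row of TaGlu1a stood at 13.95, 15.30 and 14.72 in the CS control samples (replicates 1, 2 and 3), at 14.58, 15.27 and 14.73 in those of 3R and at 14.97, 15.24 and 14.67 in those of 6R. The ranges of the 3 lines overlapped, with the lowest sample in CS, and between 21 and 539 of the 45220 rows were brighter in any control sample. Taglu1b stood at 14.90, 15.10 and 15.41 in CS, at 15.07, 14.89 and 14.86 in 3R and at 15.27, 15.36 and 15.05 in 6R. Between 14 and 79 rows were brighter than it in a control sample. The highest value of any row was 15.73 in CS, 15.63 in 3R and 15.64 in 6R. Control values of Taglu1b and of rows 1 and 2 of TaGlu1a thus lay close under the top of the scale, closest in row 2, where 6R control replicate 1 stood at 15.58 with 1 row above it. The table carries no flag for saturated spots.

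The other rows of TaGlu1a gave control levels of 13.82 to 15.52 (row 2), 13.09 to 14.76 (row 3) and 12.60 to 13.99 (row 4) in CS. In 3R they covered 14.20 to 15.41, 13.79 to 14.89 and 13.65 to 13.78, and in 6R 14.11 to 15.58, 14.17 to 15.11 and 13.48 to 14.88. Rows 3 and 4 ranked lower than row 1. Up to 1628 rows were brighter than row 3 (CS control replicate 1) and up to 2514 brighter than row 4 (CS control replicate 2). In row 4 the 3R control samples lay within 0.12 of each other, with an SD of 0.06, against SDs of 0.71 in CS and 0.70 in 6R. In rows 2 and 3 the control sample labelled with Cy3 was the highest of its line in all lines. In row 4 of CS it was the lowest.

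The design asks whether the lines differ without Al, and for these genes no difference was found. In limma, fitted to the 18 single channels with dye and array accounted for, none of the 5 rows passed in any of the 3 pairs of lines, and none had an unadjusted p under 0.05. Among all rows, 2.87% passed at a Benjamini-Hochberg adjusted p under 0.05 between 3R and CS, 0.0619% between 6R and CS and 1.23% between 3R and 6R. The control samples also enter the changes by which the genes were chosen, so these tests are not wholly separate from that choice. TaGlu1a (row 1) differed by 0.20 ± 0.67 between 3R and CS (SE, n = 3 samples per line, 95% interval -1.26 to 1.66, limma adjusted p = 0.95) and by 0.30 ± 0.67 between 6R and CS (-1.15 to 1.76, limma adjusted p = 0.98). Between 3R and 6R the difference was -0.10 ± 0.67 (-1.56 to 1.35, limma adjusted p = 1). For Taglu1b the differences were -0.19 ± 0.52 for 3R minus CS (-1.32 to 0.93, limma adjusted p = 0.94), 0.09 ± 0.52 for 6R minus CS (-1.03 to 1.21, limma adjusted p = 0.99) and -0.29 ± 0.52 for 3R minus 6R (-1.41 to 0.84, limma adjusted p = 1). The intervals of TaGlu1a reach beyond a 2-fold difference either way, so equal levels are not shown. They share 1 estimate of the spread with the Al samples, which varied more, and with control samples fitted alone the SE was 0.29 for TaGlu1a and 0.16 for Taglu1b (limma adjusted p = 0.708 or higher).

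Row 4 of TaGlu1a showed the widest gap among control groups, with 6R above CS by 0.77 ± 0.54 (limma adjusted p = 0.82), where 0.977% of all rows had a higher value of this difference. Row 3 gave 0.71 ± 0.75 for the same pair (limma adjusted p = 0.92). No pair of control groups was free of overlap in any of the 5 rows, while 15.7% of all rows had no overlap between 3R and CS, 9.92% between 6R and CS and 10.7% between 3R and 6R. Within slide 3, with 1 array per line, row 1 of TaGlu1a differed by 0.00 between 3R and CS, by -0.06 between 6R and CS and by 0.06 between 3R and 6R. On slide 1, with 2 arrays of each line, 3R minus 6R was -0.18. Taglu1b gave -0.55, -0.36 and -0.19 for these pairs on slide 3 and -0.33 for 3R minus 6R on slide 1. CS and the addition lines shared no other slide.

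**Figure D1:**
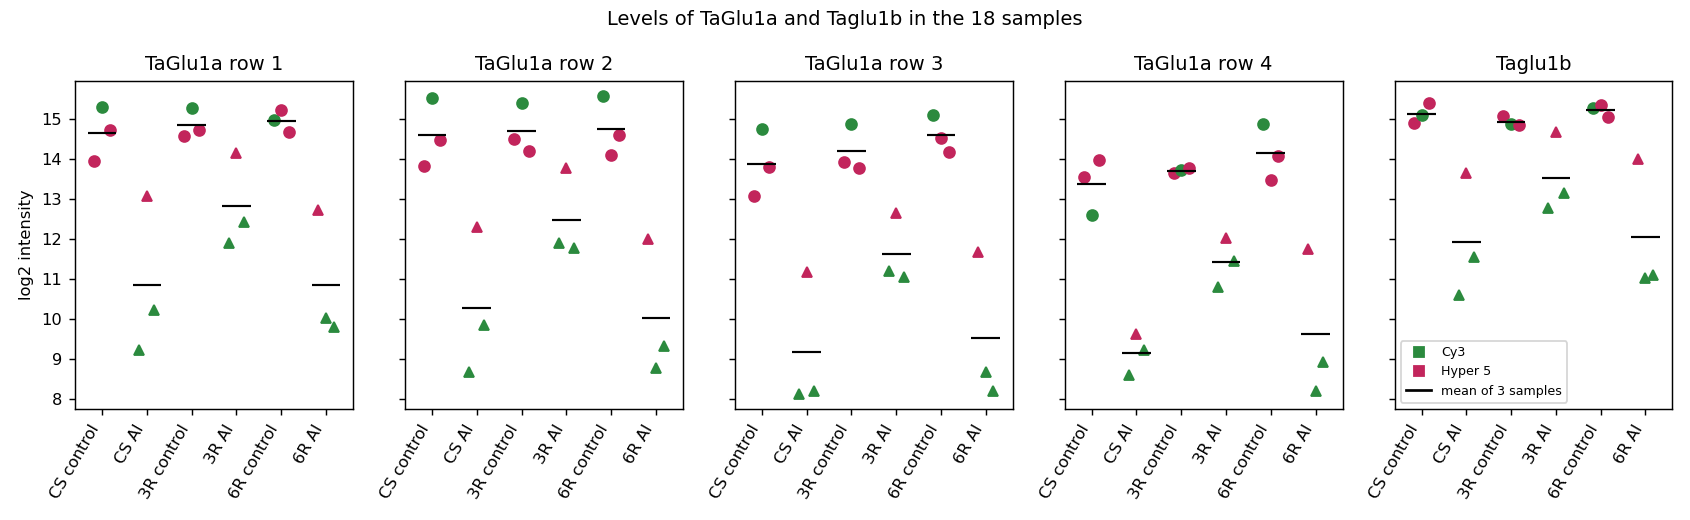
Log2 intensity (vertical axis) of the 4 rows of TaGlu1a and of Taglu1b in the 18 samples, by line and treatment; circles are control samples, triangles Al samples, colours the dye and bars the mean of 3 samples. Control samples of Taglu1b lie between 14.86 and 15.41 in all lines, and in each panel and line the highest Al sample is the one labelled with Hyper 5.

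With Al, both genes fell in all 3 lines, and least in 3R. The leading row of TaGlu1a stood at 9.23, 13.08 and 10.24 in the CS Al samples (replicates 1 to 3), at 11.91, 14.16 and 12.43 in those of 3R and at 12.73, 10.04 and 9.82 in those of 6R. Every Al sample lay below every control sample of its line. In geometric means the intensity of this row went from 25870 to 1843 units in CS, from 29700 to 7298 in 3R and from 31890 to 1861 in 6R.

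Taglu1b stood at 10.60, 13.66 and 11.57 in the CS Al samples, at 12.77, 14.69 and 13.16 in those of 3R and at 14, 11.03 and 11.11 in those of 6R. Again no Al sample reached the control samples of its line, although in 3R the highest Al sample, at 14.69, lay close under the lowest control sample, at 14.86. The geometric mean went from 36010 to 3941 units in CS, from 31470 to 11900 in 3R and from 38370 to 4236 in 6R. Even after the fall, Taglu1b kept a mean level of 11.94 or higher in each line, far above the table's floor. In these bulk samples, fewer cells of a type and less RNA per cell cannot be told apart.

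All 5 rows had no overlap between Al and control samples in each line, where 7.32% of all rows in CS, 6.73% in 3R and 8.19% in 6R had every Al sample below every control sample. All 5 also passed downwards in the fit over the whole table in each line, against 11.4% of rows in CS, 7.19% in 3R and 13.3% in 6R. The genes were chosen from these very changes, so the counts describe them and add no support.

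The fitted change averages the log2 ratios, Al over control, of the 3 arrays per line after correction for dye. For row 1 of TaGlu1a it was -3.45 ± 0.20 in CS (SE, n = 3 arrays, a 10.9-fold fall), -1.66 ± 0.20 in 3R (3.16-fold) and -3.74 ± 0.20 in 6R (13.3-fold). Row 3 gave the largest falls of the gene, at -4.45 ± 0.27 in CS (21.9-fold), -2.30 ± 0.27 in 3R (4.91-fold) and -4.81 ± 0.27 in 6R (28.1-fold). Rows 2 and 4 lay between, at -4.08 and -3.95 in CS, -1.98 and -2.01 in 3R and -4.49 and -4.25 in 6R. Row 1 of TaGlu1a, the brightest by its mean over the 18 samples, showed the smallest fall of the gene in each line. That mean includes the Al samples, so a row that falls less also ranks as brighter. Without Al, rows 1 and 2 were close, with means of 14.66 and 14.60 in CS. Taglu1b, brighter again, fell less than any row of TaGlu1a, with changes of -2.79 ± 0.20 in CS, -1.0 ± 0.20 in 3R and -2.77 ± 0.20 in 6R. The genes are read by different probes, and a gap between genes and a gap between probes cannot be told apart.

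Among all rows of the table, 85 fell more than row 1 of TaGlu1a in CS, 141 in 3R and 78 in 6R. For row 3 the numbers were 27, 45 and 15. For Taglu1b they were 178, 546 and 177, so that by rank as well as by size its place was lowest in 3R.

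**Figure D2:**
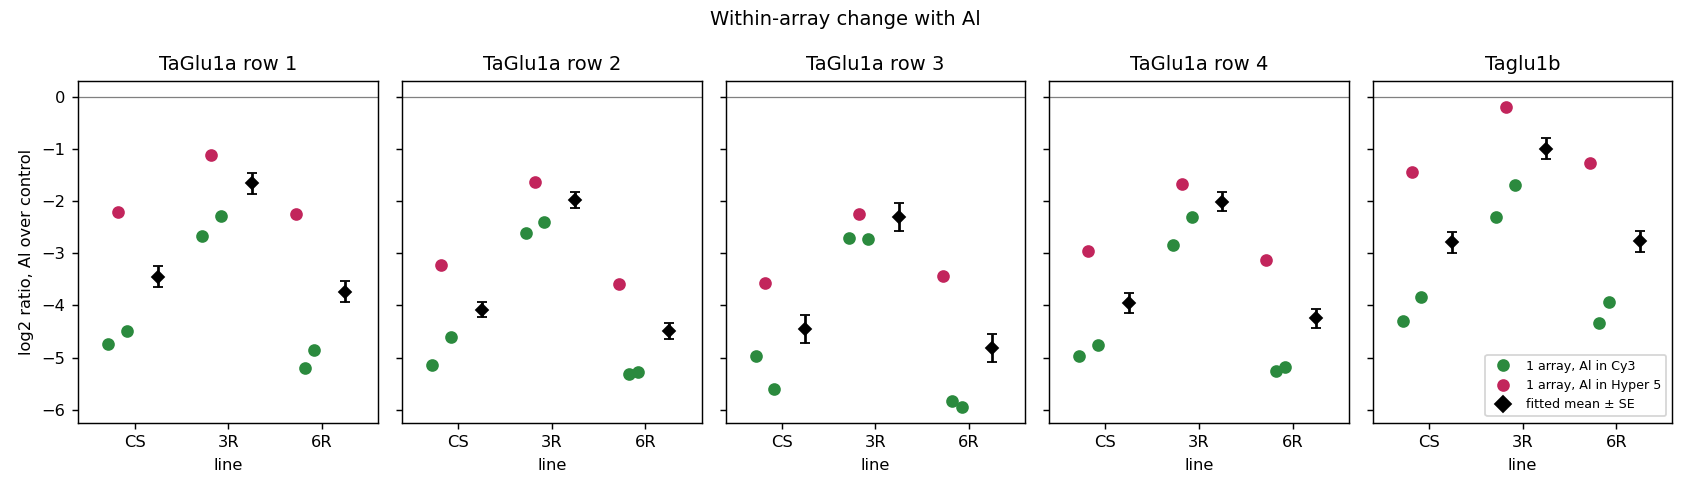
Log2 ratio of Al over control within each array (vertical axis) for the 4 rows of TaGlu1a and for Taglu1b, by line; circles are single arrays, coloured by the dye of the Al sample, and black diamonds are the fitted mean ± SE with the dye effect removed. In each row the fitted fall is smallest in 3R, and in each line the array with Al in Hyper 5 shows the smallest fall.

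The arrays of a line differed in size of the fall, which was smallest on the array with Al in Hyper 5. For row 1 of TaGlu1a the ratios of the 2 arrays with Al in Cy3 were -4.73 and -4.49 in CS, -2.67 and -2.29 in 3R and -5.20 and -4.85 in 6R. The array with Al in Hyper 5 gave -2.22, -1.11 and -2.25 in the same order of lines. For Taglu1b the arrays with Al in Cy3 gave -4.30 and -3.84 in CS, -2.31 and -1.70 in 3R and -4.33 and -3.94 in 6R, and those with Al in Hyper 5 gave -1.44, -0.20 and -1.27. In 3R the array with Al in Hyper 5 thus showed a 1.15-fold fall of Taglu1b, while the other 2 showed 4.94-fold and 3.26-fold.

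The direction was the same in all 5 rows and all 3 lines: the Al sample in Hyper 5 was the highest Al sample of its line. The fitted dye difference of the ratio was -2.18 ± 0.25 for row 1 of TaGlu1a and -2.43 ± 0.24 for Taglu1b, and -1.42 to -1.62 for rows 2 to 4. Over all rows the median size of this difference was 0.27, and 3.5% and 2.52% of rows had a larger one than row 1 of TaGlu1a and Taglu1b. The fit gives the dye difference 1 value for all lines, whereas the measured values for row 1 were -2.38 in CS, -1.38 in 3R and -2.77 in 6R. For Taglu1b they were -2.63, -1.80 and -2.86. Each line had 1 array with Al in Hyper 5, so within a line dye and array cannot be told apart. In rows 2 and 3 of TaGlu1a that array also held the highest control sample of its line. A fit with only the 2 arrays per line that had Al in Cy3 gave larger falls. In it row 1 of TaGlu1a changed by -4.61 in CS, -2.48 in 3R and -5.02 in 6R, and Taglu1b by -4.07, -2.0 and -4.13. This restriction was chosen after seeing the data. Without 3R replicate 2, the array of that line with Al in Hyper 5, the fitted change of Taglu1b in 3R was -0.63 in place of -1.0.

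Every line had the same 2 to 1 split of dyes, so the sizes of the differences between lines do not depend on the dye term, but their errors do. TaGlu1a fell less in 3R than in CS, with differences of 1.79 ± 0.28 in row 1, 2.10 ± 0.21 in row 2, 2.16 ± 0.38 in row 3 and 1.94 ± 0.26 in row 4 (SE, 3 arrays per line). For Taglu1b the difference was 1.79 ± 0.27. Without the dye term the SE of 3R minus CS was 0.97 for row 1 of TaGlu1a and 1.07 for Taglu1b, and with the samples of an array unpaired it was 1.16 and 0.86. Against 6R the fall in 3R was smaller by 2.07 ± 0.28, 2.51 ± 0.21, 2.51 ± 0.38 and 2.24 ± 0.26 in the rows of TaGlu1a and by 1.78 ± 0.27 in Taglu1b. All 5 rows passed in the fit in both comparisons, in which 1.84% and 1.09% of all rows passed, and again these values entered the choice of the genes.

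Arrays of the same dye orientation put 3R apart in the same direction. With Al in Cy3, 3R minus CS was 2.12 in row 1 of TaGlu1a and 2.07 in Taglu1b, and with Al in Hyper 5 it was 1.12 and 1.23. For 3R minus 6R the values were 2.54 and 2.13 with Al in Cy3 and 1.14 and 1.07 with Al in Hyper 5. On slide 3, where each line had 1 array of the same orientation, 3R minus CS was 2.19 in row 1 of TaGlu1a and 2.13 in Taglu1b, and 3R minus 6R was 2.55 and 2.23. On slide 1, 3R minus 6R was 1.84 and 1.55. All arrays of CS other than replicate 3 lay on a slide without other lines, so for them line and slide cannot be told apart.

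CS and 6R gave falls of near size. The difference 6R minus CS was -0.29 ± 0.28 in row 1 of TaGlu1a, -0.41 ± 0.21, -0.36 ± 0.38 and -0.30 ± 0.26 in rows 2 to 4 and 0.01 ± 0.27 in Taglu1b. None of the 5 rows passed, where 0.318% of all rows did.

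The mean levels reached under Al were also highest in 3R, with samples that overlapped between lines in most rows. Row 1 of TaGlu1a averaged 12.83 ± 1.18 (SD, n = 3) in 3R against 10.85 ± 2.00 in CS and 10.86 ± 1.62 in 6R. Taglu1b averaged 13.54 ± 1.02, 11.94 ± 1.56 and 12.05 ± 1.69. These groups overlapped, since the Hyper 5 samples of CS and 6R stood above the Cy3 samples of 3R. Only in row 4 did the 3R Al samples, at 10.81 to 12.03, lie wholly above those of CS, at 8.60 to 9.64. The share of all rows without overlap between these Al groups was not counted, so this is a description. The spread of Al samples differed between rows: the median SD over all rows was 0.22 in CS Al samples, and 0.113% of rows had a larger one than row 1 of TaGlu1a there, but 22.4% a larger one than row 4.

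**Figure D3:**
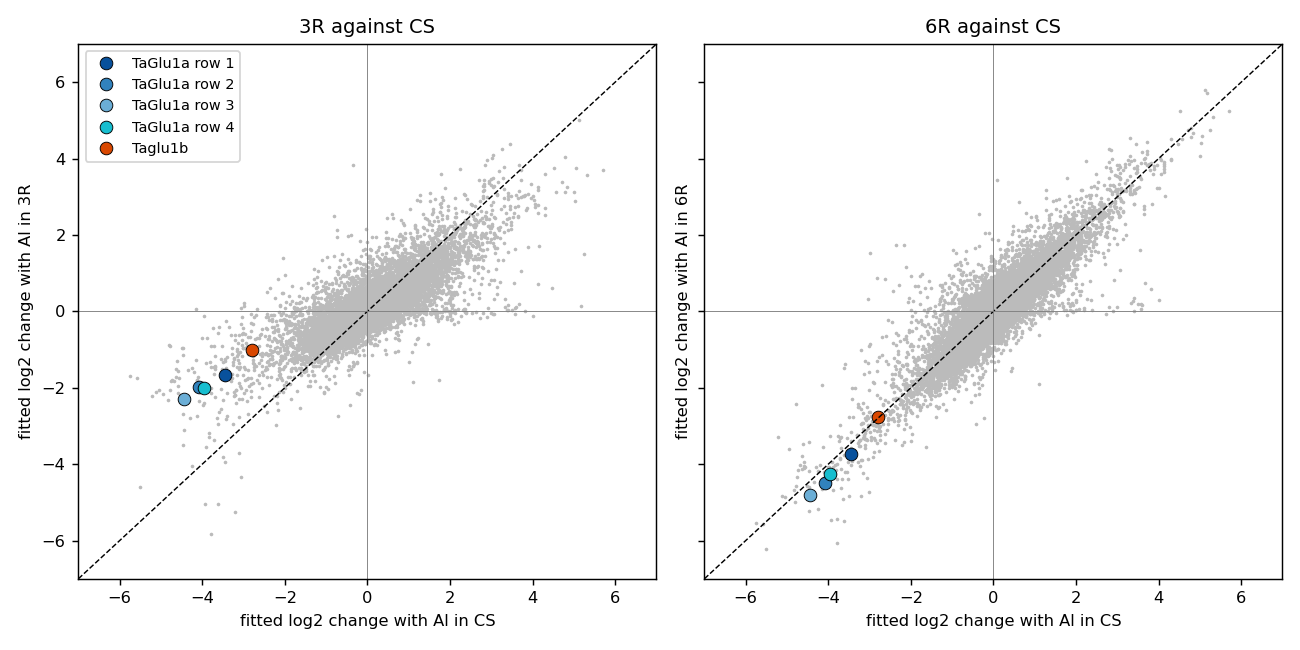
Fitted log2 change with Al in 3R (left, vertical axis) and in 6R (right) against that in CS (horizontal axis), for all 45220 rows in grey and for the 5 rows of TaGlu1a and Taglu1b in colour; the dashed line marks equal change. The 5 rows lie above the line for 3R, at -1.0 to -2.30, and on or slightly below it for 6R.

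The smaller fall in 3R was shared by most rows that fall strongly. A set of 62 rows with a fitted fall of at least 4 in 6R was picked after values had been seen. The dye correction of that fit draws on the arrays of all lines. Of these 62 rows, 55 (88.7%) fell less in 3R than in CS. Their median change was -4.09 in CS and -2.06 in 3R, and their median of 3R minus CS was 2.19. The set holds 3 rows of TaGlu1a, and the 5 rows of both genes, at 1.79 to 2.16, lay close under that median. Rows chosen as bright showed the same direction about as often: of the 384 rows with a mean control level of at least 14, 90.1% had a value of 3R minus CS above 0, against 46.6% of all rows. Their median change was -0.48 in CS, -0.11 in 3R and -0.46 in 6R, with a median 3R minus CS of 0.35, and 38.5%, 10.4% and 40.6% of them fell past the threshold. Those 384 rows include 4 of the 5 rows described here.

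**Figure D4:**
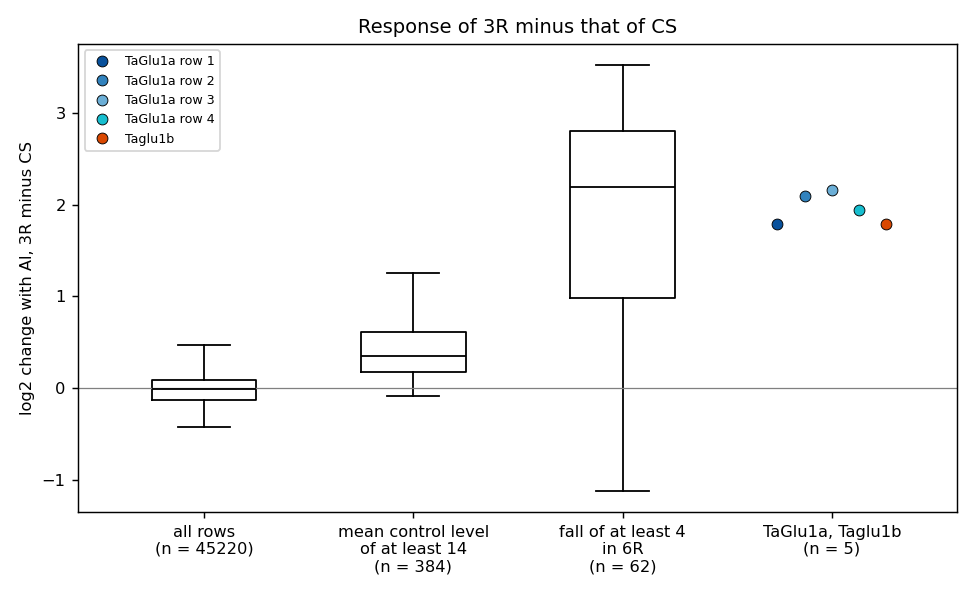
Fitted log2 change with Al in 3R minus that in CS (vertical axis) for all 45220 rows, the 384 rows with a mean control level of at least 14, the 62 rows with a fall of at least 4 in 6R and the 5 rows of TaGlu1a and Taglu1b; boxes give the median and quartiles, whiskers the range from the 5th to the 95th percentile. The 5 rows lie at 1.79 to 2.16, above nearly all rows of the table and close under the median of 2.19 of the strongly falling rows.

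The rows of both genes moved together from sample to sample. Over the 18 samples, with each line centred on its mean, row 1 of TaGlu1a and Taglu1b correlated at 0.986, and the rows of TaGlu1a correlated with each other at 0.922 to 0.989. With treatment groups centred as well, row 1 and Taglu1b still correlated at 0.956, whereas row 4 correlated with rows 1 to 3 at 0.628 to 0.682. These points share arrays, dyes and scaling, and each correlation is a description.

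By the same measure 192 rows of the table, 0.425%, correlated with row 1 of TaGlu1a at over 0.9, and 175 rows, 0.387%, with Taglu1b. Of 551 other named genes, the 5 most alike TaGlu1a had correlations of 0.939 to 0.974 over the 18 samples. They were led by LOC543468 (0.974) and LOC100136980 (0.959), which have no descriptive name in the sources used here, and included Prx113-F (0.939), a class III peroxidase gene. LOC543468 changed by -0.74 in CS, -0.45 in 3R and -0.87 in 6R, a small fall, while LOC100136980 changed by -4.25, -1.47 and -4.18. Prx113-F changed by -3.24 ± 0.26, -1.33 ± 0.26 and -3.38 ± 0.26 (SE, n = 3 arrays). The 5 genes most alike Taglu1b, at 0.952 to 0.97, were all of LOC number alone, with LOC543468 (0.97) and LOC100136980 (0.967) again among them.

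The biosynthetic side of the pathway was not seen: none of 43 symbols listed for benzoxazinoid synthesis and glucosylation, the Bx genes, the CYP71C monooxygenases and the glucosyltransferases, names a row. A list of other glycoside hydrolases changed in both directions. Of 13 rows from 6 genes, 4 rose, 3 fell and 6 did not pass in CS, 3 rose and 3 fell in 3R, and 2 rose and 4 fell in 6R. Among all rows 11.6%, 7.71% and 13.7% rose and 11.4%, 7.19% and 13.3% fell in CS, 3R and 6R. The list medians were 0.01, 0.02 and 0.01, against -0.01, -0.01 and 0.00 over all rows. In this list Glc1 rose in its row of smallest p by 1.97, 1.1 and 2.05 in CS, 3R and 6R (limma adjusted p = 0.00056 or lower). Its other row rose by 1.41, 0.82 and 1.39. The alpha-amylase gene amy1 fell in the row of smallest p with changes of -1.06, -0.83 and -1.94 (limma adjusted p = 0.0051 or lower). The gene cbp2 was placed in the list by its symbol alone and may not be a glycoside hydrolase, yet its row is among the rises counted in CS and 3R. It rose by 0.74 in CS (limma adjusted p = 0.012) and 1.00 in 3R (0.0056), and stood at 0.45 in 6R (0.076).

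Of other defence genes, PR5 (named, like WGA1 and Prx113-F, by its RefSeq synonym), which encodes a pathogenesis-related protein of the thaumatin-like class, rose by 3.04 ± 0.20 in CS, 4.09 ± 0.20 in 3R and 3.83 ± 0.20 in 6R, against the fall of the glucosidases. Rises in this list of 5 rows from 3 genes were 2 in CS, 2 in 3R and 2 in 6R, with 0, 1 and 1 falls. The lectin gene WGA1 (wheat germ agglutinin) rose by 0.67 in CS (limma adjusted p = 0.026) and fell in 3R (-0.69, 0.033) and 6R (-0.67, 0.022). The metallothionein-like gene wali1, known for its induction by Al in wheat, rose in 1 of 3 rows in 3R (1.06, limma adjusted p = 0.035) and in 6R (1.13, 0.016) and stood at 0.80 in CS (0.07). Over all rows 11.6% rose in CS, 7.71% in 3R and 13.7% in 6R.

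Of the 17 rows of dividing cells, 12 fell in CS, 5 in 3R and 12 in 6R, and none rose, where 11.4%, 7.19% and 13.3% of all rows fell. The rows that fell in CS and 3R were all of beta-tubulins. No histone H2A row passed in CS or 3R, and in 6R a single H2A row fell (-0.79, limma adjusted p = 0.032). The list medians were -0.50, -0.22 and -0.59, so that the median was smallest in size in 3R, as it was for the glucosidases. Their list mean was 11.78 to 12.28 in CS Al samples, 11.80 to 12.19 in those of 3R and 11.49 to 12.08 in those of 6R. Examples are tubb3, a beta-tubulin, which changed by -0.39, -0.89 and -0.59 (limma adjusted p = 0.0052 or lower), Tubb4 (-0.74, -0.90 and -0.80) and tubb2 (-0.77 in CS and -0.63 in 6R, and -0.22 in 3R, where limma gave an adjusted p of 0.18). These values are from the row of smallest p of each gene. In these rows tubb3 and Tubb4 had their largest change in 3R, opposite to the list median, and tubb2 had its smallest there. Another tubb3 row changed most in 6R (-0.5, -0.69 and -1.12 in CS, 3R and 6R), and a further tubb3 row most in 3R (-0.28, -0.82 and -0.7). Between lines none of the 17 rows differed in the size of the change past the threshold, so this order of medians is a description. In the photosynthesis list 3 of 23 rows fell in CS, near the share of all rows. None passed in 3R, where 7.71% of all rows rose and 7.19% fell, and 1 rose in 6R, where 13.7% of all rows did. PsbO stood at -1.15 in CS (limma adjusted p = 0.00094), -0.43 in 3R (0.093) and -0.34 in 6R (0.13). Of 17 rows of rbcL (also written rbcl in the annotation), which encodes the large subunit of Rubisco, 1 rose in 6R, at 0.91 (limma adjusted p = 0.047), and the other 16 had adjusted p of 0.075 or higher there. The list mean was 8.81 to 10.23 in CS Al samples, 9.63 to 10.25 in those of 3R and 9.40 to 10.45 in those of 6R. The part of cell composition in the fall of the glucosidases was not tested.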

How the data were processed

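The deposited values are log2 intensities of single dye channels. Per the submitters' processing notes limma was used, while neither background correction nor normalization is stated in any source used here. Sorted values differ by at most 0.006 between samples of a line, and by up to 0.355 between CS and 3R, so each line appears to have been quantile normalized on its own. Levels between lines rest on this. The lowest value is 5.62 (49.2 intensity units), and 37.6% of rows average under 6.3. There is no detection call, and all 45220 rows were tested. Precision is limited by 3 arrays per line.

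Log2 ratios of Al to control samples of an array were modelled in limma 3.58.1 (R 4.3.3) by a mean per line plus 1 shared dye term (5 residual degrees of freedom, 2.61 from the prior). The pairing comes from the shared array: residuals of its 2 samples correlated at 0.722 to 0.855. Control levels were fitted on 18 channels with 6 group means, dye, and a random block for arrays (consensus correlation 0.625). Adjusted p-values are Benjamini-Hochberg over all rows, with a threshold of 0.05. Both fits were run on simulated data with array effects but without a dye effect, so the dye term was not tested there. For 6R, titles and scanner file names give replicates 1 and 2 in opposite order, and the titles were followed. The labels call replicates biological without naming separate cultures, so p-values cover the spread between these samples alone.

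TaGlu1a, which has several rows, is led by the row of highest mean over 18 samples. A gene named from a list is given by its row of smallest p in the mean change of the lines, unless stated otherwise. The genes most alike are given by their row of highest correlation. Named genes are the 2 genes themselves, up to 3 genes per list of smallest p in the mean change of the lines, and the 5 genes most alike, with LOC numbers limited to 2. The genes and lists were chosen with earlier results of these data known. Alternatives dropped the dye term, array block or single replicates, added slide or replicate blocks, rescaled or filtered rows.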

Additional observations from a re-analysis of the deposited data

Results flagged for a closer look

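The size of the fall with Al differed between lines past the threshold in the fit over all rows, for the 5 rows of both genes and in both comparisons with 3R. Since the genes were chosen with these differences known, the values are descriptions. For 3R minus CS they were 1.79, 2.10, 2.16 and 1.94 on the log2 scale in rows 1 to 4 of TaGlu1a and 1.79 in Taglu1b. For 3R minus 6R they were 2.07, 2.51, 2.51 and 2.24 in TaGlu1a and 1.78 in Taglu1b. Groups of 3 samples were not tested for single outlying values, and the values with each replicate left out are given with the other alternatives.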

How the results depend on the processing

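No alternative brought a control level past the threshold: over 87 recomputed values the adjusted p in limma was 0.675 to 1. Their signs are not settled. Centring each sample on its median turned TaGlu1a 3R minus 6R to 0.03 and Taglu1b 3R minus CS to 0.05, and a slide block turned Taglu1b 6R minus CS to -0.25. Leaving out a replicate moved TaGlu1a between -0.44 and 0.87 (3R minus CS), -0.23 and 0.97 (6R minus CS) and -0.74 and 0.22 (3R minus 6R), and Taglu1b between -0.63 and 0.18, -0.30 and 0.46 and -0.72 and 0.10.

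The falls with Al kept their sign throughout. Without the dye term TaGlu1a in CS was -3.81 and Taglu1b -3.19 in CS and -3.18 in 6R. With a slide block TaGlu1a in CS was -3.72. The mean of its 4 rows gave -3.98 in CS and -4.32 in 6R. The arrays with Al in Cy3 alone, an alternative chosen after seeing the data, gave TaGlu1a -4.61, -2.48 and -5.02 and Taglu1b -4.07, -2.0 and -4.13 in CS, 3R and 6R. Leaving out a replicate gave TaGlu1a -3.57 to -3.35 in CS, -1.89 to -1.19 in 3R and -4.08 to -3.55 in 6R, and Taglu1b -2.90 to -2.64, -1.25 to -0.63 and -3.03 to -2.60. With a replicate left out, the line differences ranged over 1.54 to 2.19 (3R minus CS) and 1.82 to 2.47 (3R minus 6R) for TaGlu1a and 1.51 to 2.10 and 1.5 to 2.09 for Taglu1b, and with Al in Cy3 alone they were 2.12 and 2.54 for TaGlu1a and 2.07 and 2.13 for Taglu1b. The cause of these shifts was not tested.

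With no replicate block, that is with the 2 samples of an array unpaired, the change of Taglu1b in 3R stayed at -1.0 with an SE of 0.62 in place of 0.20. With the replicate number as a replicate block between lines, TaGlu1a 3R minus CS stayed at 0.20 (limma adjusted p = 0.945). Same-numbered control samples of different lines correlated at -0.19 to 0.185, so the numbers do not pair lines.

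Counts over all rows fell without the dye term: from 10370 to 3912 in CS, 6735 to 1691 in 3R, 12214 to 4430 in 6R, 831 to 129 for 3R minus CS, 144 to 43 for 6R minus CS, 492 to 41 for 3R minus 6R and 1297 to 819 for control levels of 3R minus CS (698 with quantile normalization over all samples). Without rows averaging under 6.3 the counts were 237 for 6R minus CS and 17 in place of 28 for control levels of 6R minus CS. The mean over rows gives no further value for Taglu1b, which has 1 row.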
